A study of Mus musculus with 10 samples.

Results

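The LIM homeodomain factors are transcription factors that join a DNA-binding homeodomain to a pair of LIM domains, zinc-binding modules that hold cofactors. The members were taken by name: the Isl, Lhx and Lmx genes Isl1, Isl2, Lhx1, Lhx3, Lhx5, Lhx6, Lhx8, Lhx9, Lmx1a and Lmx1b. Of these 10 genes, 9 were measured among the 18502 genes of the Eed comparison, and the same 9 among the 18344 genes of the Ring1 comparison. Lhx3 is not analysed here. RNA was sequenced from mouse back-skin cells sorted by 3 surface proteins, α6-integrin(high), Sca1(+) and EpCAM(+), a surface profile of basal keratinocytes between the hair follicles. All animals, controls included, are described as given 4OH-Tam (4-hydroxytamoxifen, which switches on an inducible recombinase) on shaved skin, 100 µl of 20 mg/ml a day for 4 days from postnatal day 50, and cells were taken at postnatal day 71. Eed KO (genotype Eed -/-) and Eed control had 3 libraries each, and Ring1a/b 2KO (genotype Ring1a-/- Ring1b-/-) and Ring1 control had 2 each. Each knockout had its own controls, whose genotype is given only as control. The sources used here give neither the recombinase driver nor the floxed alleles, and nothing states that the libraries of a group came from separate mice, so the p-values measure only the spread between these samples.

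LIM homeodomain factors decide the identity of neurons and of cells in heart, kidney, gonad, pancreas and limb, and they act in complexes built on the adaptor Ldb1, which grips their LIM domains. Polycomb complexes keep such developmental genes silent in cells where they do not belong, mostly at promoters rich in CpG dinucleotides. PRC2, which needs Eed, places a methyl mark on histone H3, and PRC1, whose ligases are Ring1a (gene symbol Ring1) and Ring1b (Rnf2), places ubiquitin on histone H2A. In normal epidermis Isl1 is known from Merkel cells, the touch-sensing cells of the basal layer.

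Because these complexes act at CpG-rich promoters, 3 upstream stretches are shown that differ in CpG content: those of Isl1, the member with the largest difference in mean log2(count + 1) in both knockouts; of Lhx9, the largest tested difference after Isl1 in the Eed KO; and of Lmx1b, the most abundant member per kilobase in the Eed controls, which differed little. Each is 230 bases long and ends 20 bases before the RefSeq transcription start, 5′ to 3′ on the minus strand of GRCm38.p6 (mm10), with CpG in capitals. The Isl1 stretch is chr13:116309709-116309938 and holds 33 CpG. The Lhx9 stretch is chr1:138842465-138842694, inside the GENCODE gene body, and holds 3. The Lmx1b stretch is chr2:33641119-33641348, overlaps exons of the noncoding RNA gene C130021I20Rik, and holds 17.
Isl1: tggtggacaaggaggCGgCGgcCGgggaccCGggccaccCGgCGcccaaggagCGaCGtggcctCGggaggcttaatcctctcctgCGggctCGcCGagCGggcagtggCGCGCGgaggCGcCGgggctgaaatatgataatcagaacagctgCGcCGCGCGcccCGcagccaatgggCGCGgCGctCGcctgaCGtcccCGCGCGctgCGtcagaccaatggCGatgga
Lhx9: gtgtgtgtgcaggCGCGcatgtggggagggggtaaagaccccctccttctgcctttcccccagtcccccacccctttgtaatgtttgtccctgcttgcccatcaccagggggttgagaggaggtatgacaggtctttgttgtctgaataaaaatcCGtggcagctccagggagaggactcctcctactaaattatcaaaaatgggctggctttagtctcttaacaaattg
Lmx1b: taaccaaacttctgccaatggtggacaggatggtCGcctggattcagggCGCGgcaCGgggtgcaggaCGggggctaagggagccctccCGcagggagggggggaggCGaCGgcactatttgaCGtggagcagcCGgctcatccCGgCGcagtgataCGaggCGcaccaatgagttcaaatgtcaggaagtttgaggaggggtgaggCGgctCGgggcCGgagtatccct

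RefSeq promoter windows of 300 bases were found for 8 of the 9 measured members, with 3 windows for Lhx6 and 1 for each other. CpG, counted as the letters CG, ran from 4 in the Lhx8 window to 37 in that of Isl1, against a median of 7 over all 32851 promoters of the table and of 16 over the 17536 promoters of measured genes. Of all promoters, 5.58% hold as many CpG as that of Isl1, and 10.6% hold as many as that of Lhx1, which has 31. Among promoters of measured genes these shares are 8.52% and 16.3%. Lmx1b followed with 24 and Isl2 with 23, the 3 Lhx6 windows had 17, 16 and 11, and Lmx1a had 12. Lhx9 had 6, a number that 56.4% of all promoters and 76.0% of those of measured genes reach. The Lhx9 window ends at 138842694, while the GENCODE gene, on the minus strand, reaches to 138848577. The windows of Isl2 and Lmx1a also lie inside the GENCODE gene body. For these genes CpG at the annotated 5′ end of the gene was not counted. Such counts describe the letters of 1 annotated window and say nothing on binding.

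**Figure D1:**
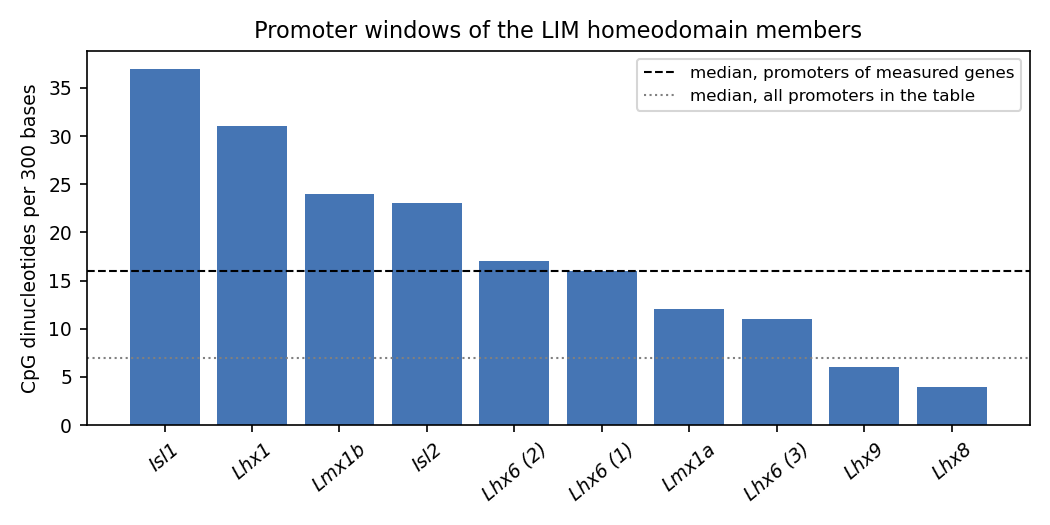
CpG dinucleotides in each 300-base RefSeq promoter window of the LIM homeodomain genes (bars; numbers in brackets mark the 3 Lhx6 windows). Dashed and dotted lines are the medians of promoters of measured genes (16) and of all promoters (7). Isl1 and Lhx1 stand highest with 37 and 31, and Lhx9 and Lhx8 lie lowest with 6 and 4. The windows of Lhx9, Isl2 and Lmx1a lie inside the GENCODE gene body.

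Values are the authors' normalised read counts, and the 2 tables were normalised separately, so no level was tested across them. The Eed libraries held 31699979 to 40701183 reads. The Ring1 libraries held 25158144 and 7162907 reads in controls 1 and 2, and 19814853 and 6237389 in 2KO libraries 1 and 2. Mitochondrially encoded genes took 2.34% to 2.81% of reads in the Eed controls against 2.85% to 3.58% in the Eed KO. In the Ring1 set this share was 6.51% and 7.28% for the controls and 8.16% and 12.7% for the 2KO. The part that this share, which was higher in both knockouts, has in the results was not tested. The targeted genes could not check the labels, since counts over the whole gene can include exons that a deletion leaves in place, and the deleted exons are not given. How complete the deletion was, or why RNA of these genes remained, was not tested. Eed was at 1623 ± 272 in its controls and 1298 ± 139 in the Eed KO (SD, n = 3). Ring1 was at 66.2 and 211 in its controls against 104 and 115 in the 2KO, and Rnf2 at 672 ± 3.45 and 624 ± 135 (SD, n = 2). All 8 basal keratinocyte markers of a fixed list (Krt5, Krt14, Itga6, Itgb4, Epcam, Ly6a, Trp63, Col17a1) were measured, and none was called by limma or in the authors' deposited tables. Their summed counts were 1046070 or more in every Eed library, with 5 of 8 differences positive and a median log2 difference of 0.046. The Ring1 controls summed to 253980 and 315979 and the 2KO libraries to 231529 and 270770, each pair given lowest first, with 2 of 8 differences positive and a median of −0.31. The smallest p-values there were those of Col17a1, with a limma log2 difference of −0.92 (unadjusted p = 0.00768, adjusted p = 0.331), and Itga6, with −0.68 (unadjusted p = 0.0137, adjusted p = 0.372).

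The Eed comparison sets the libraries labelled Eed KO against their controls, and loss of PRC2 activity was not measured. Isl1 rose in the Eed KO in the authors' deposited table, from 4.69 ± 2.97 in controls to 113 ± 82.2 (SD, n = 3), 24.1-fold, while the other members were not called there. Lhx9 was the next largest of the tested members, at 6.64 ± 5.15 and 53.6 ± 70.1, with most of the difference in 1 KO library. Lhx5, Lhx6, Lmx1a and Lmx1b had closely overlapping groups. Isl2 and Lhx8 had no read in any control.

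A gene is called here when its adjusted p is under 0.05. limma, the main test, on log2(normalised count + 1), called 0 of 16122 genes, a percentage of 0, with 762 (4.73%) at an unadjusted p under 0.05. edgeR's quasi-likelihood test on the reads recovered from the normalised counts called 0 of 15081, with 698 (4.63%) unadjusted. DESeq2 made 127 calls among 16684 genes (0.761%) in the authors' deposited table, 118 of them higher (0.707%), and of the 8 members that have an adjusted p in it 1 was higher, Isl1. Of the 9 measured members, 6 had a mean of at least 5 and entered the limma test, and Isl1 did so only through its KO libraries. Over all 9, 7 differences were positive, with a median of 0.93 on the log2(value + 1) scale. Those of Lmx1a and Lmx1b turned negative under quantile normalisation and under centring, respectively. Those of Isl2 and Lhx8, with no control read, could not be negative. Over all 18502 genes 52.1% were positive and the median was 0.017. The groups did not overlap for 1 member, Isl1, which was higher in the KO, against 4.92% of all genes.

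The Ring1 comparison sets the libraries labelled Ring1a/b 2KO against their own controls, and loss of PRC1 activity was not measured. Isl1 rose in the 2KO in the authors' deposited table, from 3.53 ± 2.05 to 85.7 ± 74.0 (SD, n = 2), 24.3-fold. The 2KO values lay above both controls for 5 of 9 members (Isl1, Isl2, Lhx1, Lhx8 and Lmx1a), where 20.5% of all genes showed the same. For some of the 5 this rests on little. Lmx1a had 9 and 2 reads in the controls and 9 and 4 in the 2KO. Isl2 in 2KO 1 was hardly above control 1 (24.7 and 24.0). Lhx8 had 2 and 4 reads in the 2KO and none in the controls, so it could not be lower. For Lhx5, Lhx6, Lhx9 and Lmx1b the groups overlapped. No member was lower in both 2KO libraries.

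limma called 6 of 15310 genes (0.0392%) in this comparison, none of them a member, with 1597 (10.4%) at an unadjusted p under 0.05, and edgeR called 6 of 14565 (0.0412%), with 1451 (9.96%) unadjusted. The authors' deposited table called 231 of 15498 genes (1.49%), 183 of them higher (1.18%), and again Isl1 was the 1 member called of 8 with an adjusted p. Of the 9 measured members, 8 entered the limma test, Isl1 and Lmx1a only through their 2KO libraries. The difference was positive for 9 of 9, with a median of 1.51, though that of Lhx8, with no control read, could not be negative. Under quantile normalisation it was positive for 6 of the 8 tested members, and Lhx6 and Lmx1a turned negative. Over all 18344 genes 52.0% were positive and the median was 0.026. 2KO library 2 held the highest value of 8 of the 9 members, all but Lhx6; it is also the library with the fewest reads and the highest mitochondrial share, and the part these have in the result was not tested.

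**Figure D2:**
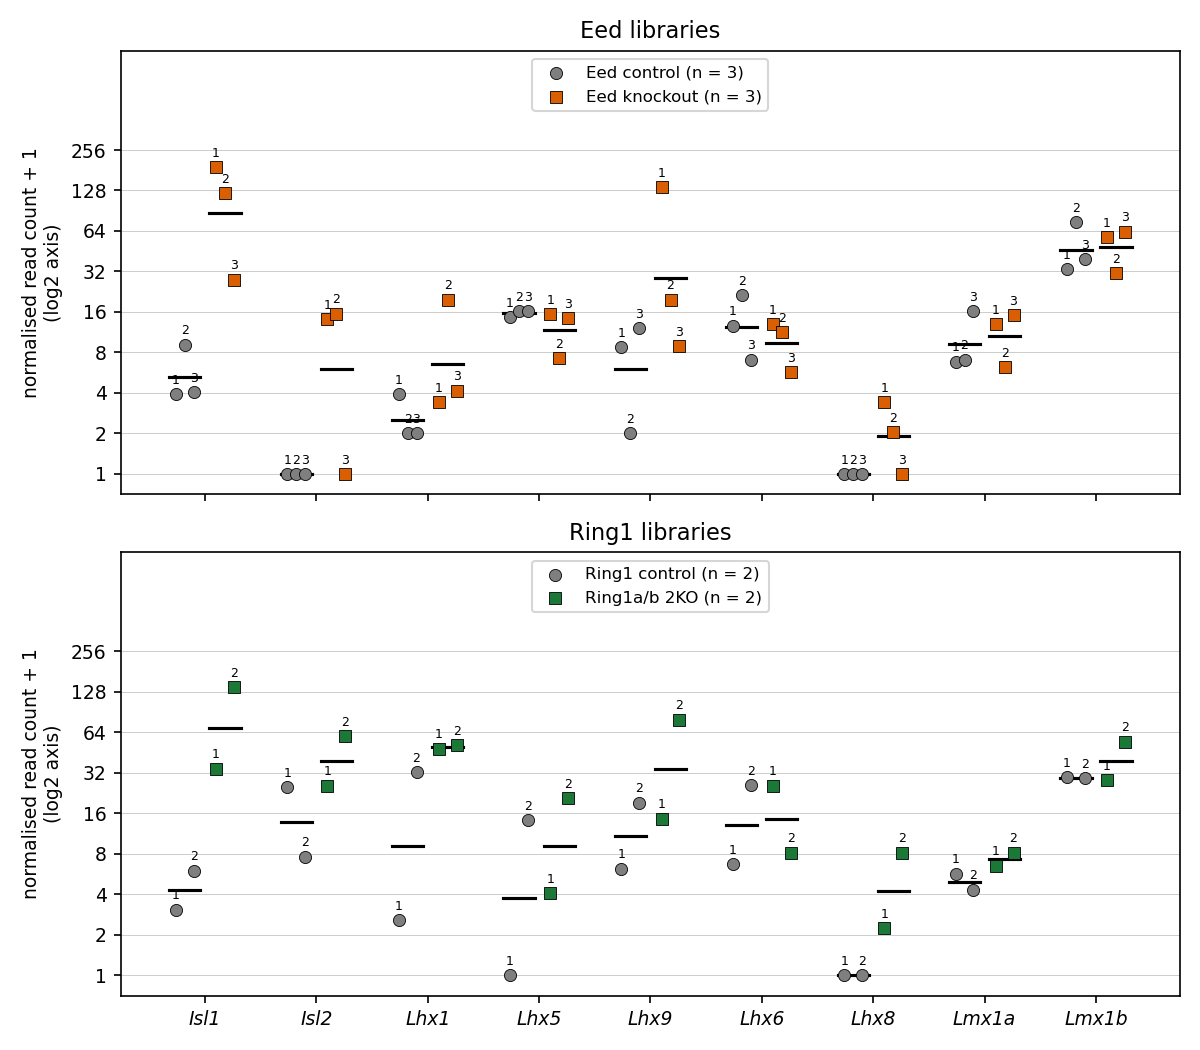
Normalised read count plus 1 (log2 axis) of each LIM homeodomain gene in every library; numbers are the library numbers within a group and lines are group means on the log scale. Isl1 is the 1 gene whose knockout libraries all lie above all of its controls in both panels.

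The islet factors come first. Isl1, which drives motor neuron, heart progenitor and pancreatic islet programmes (ENSMUSG00000042258.13, chromosome 13, 116298281 to 116309689, minus strand), had normalised read counts of 2.92, 8.12 and 3.03 in Eed controls 1 to 3 against 191, 121 and 26.8 in KO libraries 1 to 3. Every KO library was above every control, with KO 1 the highest and KO 3 the lowest of the KO. These counts rest on 3, 8 and 3 reads in the controls and on 159, 117 and 34 in the KO, which gives 95% counting intervals of 162 to 223, 100 to 145 and 18.6 to 37.5 for the KO values; the KO libraries thus differed from each other by more than counting error. The limma log2 difference was 4.05 (SE 0.80, unadjusted p = 0.000624, adjusted p = 0.537), which placed Isl1 18th of the 16122 genes by p. The log2 fold change in the authors' deposited table was 4.59, with an adjusted p of 2.59e-05. With DESeq2 on recovered reads Isl1 was called without each of the 6 libraries in turn, with a log2 fold change of 3.98 without KO 1 (adjusted p = 0.032), 5.05 without KO 3 and 5.25 without control 2. In bulk samples a few cells with much Isl1 RNA and many cells with little cannot be told apart.

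In the Ring1 libraries Isl1 had counts of 2.08 and 4.99 in the controls against 33.4 and 138 in the 2KO. Both 2KO values were above both controls and differed from each other beyond counting error, with 95% intervals of 25.1 to 43.5 and 109 to 173 from 54 and 77 reads. The controls held 4 and 3 reads. The limma log2 difference was 4.01 (SE 0.874, unadjusted p = 0.00121, adjusted p = 0.207), and Isl1 was 88th of 15310 genes by p. The authors' deposited table gave a log2 fold change of 4.75 (adjusted p = 0.000672). That call was lost in DESeq2 without control 1 (log2 fold change 4.09, adjusted p = 0.311) and without 2KO 2 (3.35, adjusted p = 1.00), while the adjusted p was 0.00453 without control 2 (5.33) and 9.65e-05 without 2KO 1 (5.46). Each of these fits leaves 1 library in a group, which is assumed to vary like the other group, and so do all those on the Ring1 libraries given below with 1 library left out.

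Isl2, the close relative of Isl1 in motor neurons and retinal ganglion cells (ENSMUSG00000032318.12, chromosome 9, 55538672 to 55546180, plus strand), had 0 reads in the 3 Eed controls and counts of 13.2, 14.5 and 0 in the KO. It was therefore present in 2 of 3 KO libraries, with 11 and 14 reads. Set against a floor of 3 reads per control library, the KO mean was at least 3.08-fold higher, and the adjusted p in the authors' deposited table was 0.607. The log2 fold change in that table, 5.65, is larger than the 4.59 of Isl1, but with no control read it is a fitted value and no bound. Among the Ring1 libraries, Isl2 had 24.0 and 6.65 in the controls against 24.7 and 59.2 in the 2KO. 2KO library 1 was hardly above control 1, and the limma log2 difference was 1.51 (SE 0.799, adjusted p = 0.553), or 0.66 without control 2 and 2.36 without control 1. The antisense gene Gm17226 overlaps Isl2, and the sources used here do not say whether the kit marked strand, so their reads cannot be told apart.

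Lhx1 and Lhx5 form a pair of close relatives. Lhx1 acts in the head organiser and the developing kidney (ENSMUSG00000018698.15, chromosome 11, 84518284 to 84525535, minus strand). Its counts were 2.92, 1.01 and 1.01 in the Eed controls against 2.40, 18.7 and 3.16 in the KO. Only KO library 2 stood clear of the controls, and the gene was too low to enter the limma test. Across the Ring1 libraries, Lhx1 had 1.56 and 31.6 in the controls against 47.6 and 50.2 in the 2KO. The controls were far apart and the 2KO values close together, so that the limma log2 difference of 2.45 had an SE of 1.18 (adjusted p = 0.536). Without control 1, the lower control, limma gave 0.61 and DESeq2 0.63 (adjusted p = 1.00), and without control 2, the higher control, limma gave 4.28 and DESeq2 4.95 (adjusted p = 0.0384). The size of the Lhx1 difference thus rests on which control is read.

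Lhx5, a factor of forebrain and hippocampus (ENSMUSG00000029595.9, chromosome 5, 120431699 to 120441223, plus strand), had counts of 13.6, 15.2 and 15.2 in the Eed controls against 14.4, 6.22 and 13.4 in the KO. The 3 controls were close together, and the groups overlapped. The limma log2 difference was −0.42 (SE 0.642, adjusted p = 0.989). In the Ring1 libraries Lhx5 had 0 and 13.3 in the controls against 3.09 and 19.7 in the 2KO, with a limma log2 difference of 1.28 (SE 1.51, adjusted p = 0.811). In both Ring1 groups library 2 was the higher. The antisense gene Gm27199 overlaps Lhx5, so the limit on strand given for Isl2 holds here too.

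Lhx9, needed for gonad formation (ENSMUSG00000019230.14, chromosome 1, 138825186 to 138848577, minus strand), had counts of 7.79, 1.01 and 11.1 in the Eed controls against 134, 18.7 and 7.89 in the KO. KO 1 was far above every other library, KO 2 was above the controls, and KO 3 lay among them. The ratio of means was 8.07, and the limma log2 difference was 2.26 (SE 1.11, unadjusted p = 0.0709, adjusted p = 0.989). The log2 fold change in the authors' deposited table was 3.01 (adjusted p = 0.331). Without KO 1 the limma difference was 1.14 and the DESeq2 log2 fold change 0.99. Among the Ring1 libraries, Lhx9 had 5.21 and 18.3 in the controls against 13.6 and 78.9 in the 2KO. Only 2KO 2 exceeded both controls, and the limma log2 difference was 1.64 (SE 0.978, adjusted p = 0.601). Without 2KO 2 it was 0.42, and 0.27 in DESeq2.

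Lhx6 and Lhx8 act in the ventral forebrain, Lhx6 in cortical interneurons and Lhx8 in cholinergic neurons as well as in oocytes. Lhx6 (ENSMUSG00000026890.19, chromosome 2, 36081953 to 36105408, minus strand) had counts of 11.7, 20.3 and 6.07 in the Eed controls against 12.0, 10.4 and 4.73 in the KO. All 3 KO values lay below the highest control, with a limma log2 difference of −0.39 (SE 0.752, adjusted p = 0.989). Across the Ring1 libraries, Lhx6 had 5.73 and 24.9 in the controls against 24.7 and 7.17 in the 2KO, a limma log2 difference of 0.13 (SE 0.967, adjusted p = 0.973). Each Ring1 group thus had 1 high and 1 low library. The noncoding RNA gene Gm27953 overlaps Lhx6 on the same strand, so reads from the shared stretch cannot be told apart. Lhx8 (ENSMUSG00000096225.7, chromosome 3, 154306294 to 154330659, minus strand) had 0 reads in all 5 control libraries of both tables. It had 2, 1 and 0 reads in Eed KO libraries 1 to 3 and 2 and 4 reads in the 2KO, too few for a fold or a test.

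The groups of the Lmx1 genes overlapped in 3 of 4 comparisons. Lmx1a, a factor of the roof plate and of midbrain dopamine neurons (ENSMUSG00000026686.14, chromosome 1, 167689237 to 167848741, plus strand), had counts of 5.84, 6.09 and 15.2 in the Eed controls against 12.0, 5.19 and 14.2 in the KO. The groups spanned nearly the same range, and the limma log2 difference was 0.21 (SE 0.763, adjusted p = 0.993). In the Ring1 libraries Lmx1a had 4.69 and 3.32 in the controls against 5.56 and 7.17 in the 2KO, a limma log2 difference of 0.56 (SE 1.06, adjusted p = 0.889). Lmx1b, which patterns the dorsal limb and acts in kidney podocytes (ENSMUSG00000038765.13, chromosome 2, 33560965 to 33640511, minus strand), had counts of 32.1, 73.0 and 38.4 in the Eed controls against 56.4, 30.1 and 62.3 in the KO. Both groups ran from about the same low to about the same high value, and the limma log2 difference was 0.074 (SE 0.515, adjusted p = 0.996). Among the Ring1 libraries, Lmx1b had 28.6 and 28.3 in the controls against 27.2 and 53.8 in the 2KO. 2KO 1 matched the controls and 2KO 2 was higher, with a limma log2 difference of 0.42 (SE 0.601, adjusted p = 0.849). Gm38011, on the opposite strand, overlaps Lmx1b, with the same limit on strand as for Isl2.

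**Figure D3:**
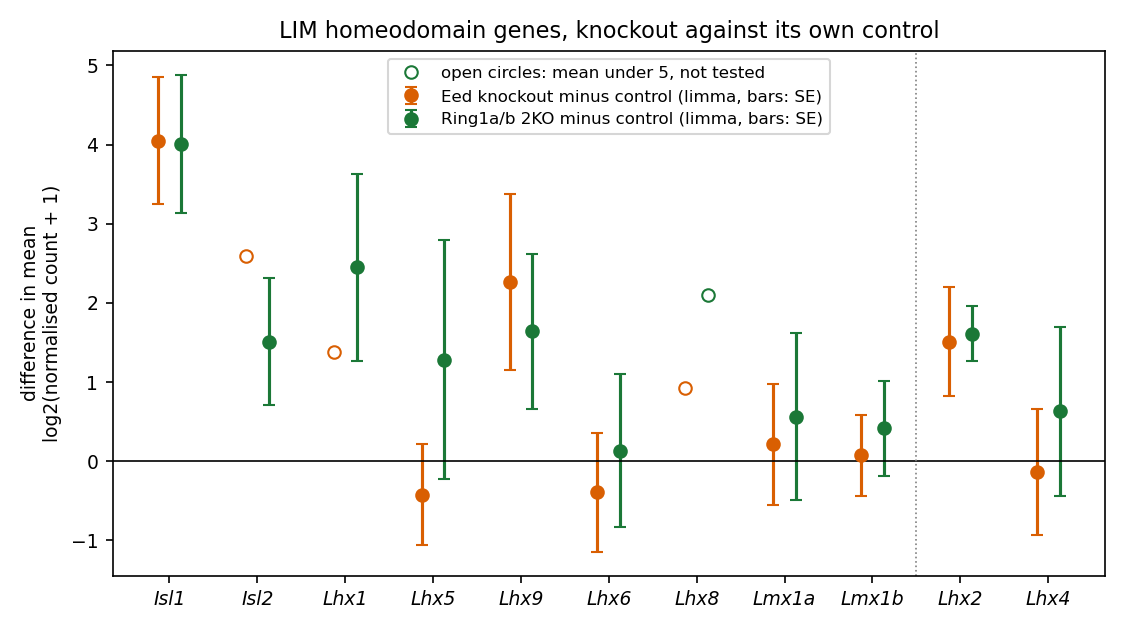
Knockout minus control difference in mean log2(normalised count + 1) for each LIM homeodomain gene, with the limma SE as bars; open circles have a mean under 5 and were not tested, and Lhx2 and Lhx4 stand to the right of the dotted line. Isl1 lies at 4.05 and 4.01, while the bars of Lhx5, Lhx6, Lmx1a, Lmx1b and Lhx4 cross 0 in both comparisons.

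The libraries of a group did not agree on how many members were high. Above the highest Eed control lay 4 of 9 members in KO 1 (Isl1, Isl2, Lhx8, Lhx9), 5 in KO 2 (Isl1, Isl2, Lhx1, Lhx8, Lhx9) and 2 in KO 3 (Isl1, Lhx1). Of all 18502 genes, 33% lay above every control in KO 1, 20.5% in KO 2 and 21.3% in KO 3. Isl1 was the 1 member above the controls in all 3. In the Ring1 comparison 5 of 9 were above both controls in 2KO 1 and 8 of 9 in 2KO 2, against 34.7% and 37.7% of all genes. 2KO 2 is the shallowest library, and the part of its depth in this count was not tested.

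The 2 effects were compared over all 10 libraries, as the Eed difference minus the Ring1 difference. limma called 0 of 15096 genes for this, with 285 (1.89%) at an unadjusted p under 0.05. For Isl1 it was 0.039 (SE 1.29, adjusted p = 1.00), an SE that allows a difference of either sign. The largest gap in size among the 6 tested members was that of Lhx5, −1.70 (SE 1.56), and that of Lhx9 was 0.62 (SE 1.73), both with an adjusted p of 1.00. By the authors' deposited tables, 47 genes were higher in both comparisons, 39.8% of the 118 and 25.7% of the 183, and Isl1 was among them. The comparisons share no control library.

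Divided by the length of the merged exons, counts could be ordered between members. In the Eed controls the order per kb of exon was Lmx1b at 9.81 ± 4.51, Lhx5 at 5.46 ± 0.335, Lmx1a at 2.66 ± 1.57, Lhx6 at 2.64 ± 1.49, Isl1 at 1.18 ± 0.750, Lhx9 at 0.700 ± 0.543 and Lhx1 at 0.405 ± 0.271 (SD, n = 3), with Isl2 and Lhx8 at 0 reads. Among neighbours in that order with reads, only Lhx5 and Lmx1a differed by more than the larger SD. In the Eed KO Isl1 became the highest member, at 28.5 ± 20.8 per kb, above Lmx1b at 10.2 ± 3.52, though that gap was within the SD of Isl1. Isl2 came to 4.21 ± 3.66 per kb there, beside Lhx5 at 4.22 ± 1.66. In the Ring1 controls Isl1 was the lowest member with reads, at 0.893 ± 0.518 per kb, and Isl2 and Lmx1b led with 6.98 ± 5.58 and 5.83 ± 0.0579. In the 2KO Isl1 led with 21.7 ± 18.7, followed by Isl2 at 19.1 ± 11.1 and Lhx1 at 12.0 ± 0.454 (SD, n = 2). No neighbours in the 2KO order differed by more than the larger SD.

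**Figure D4:**
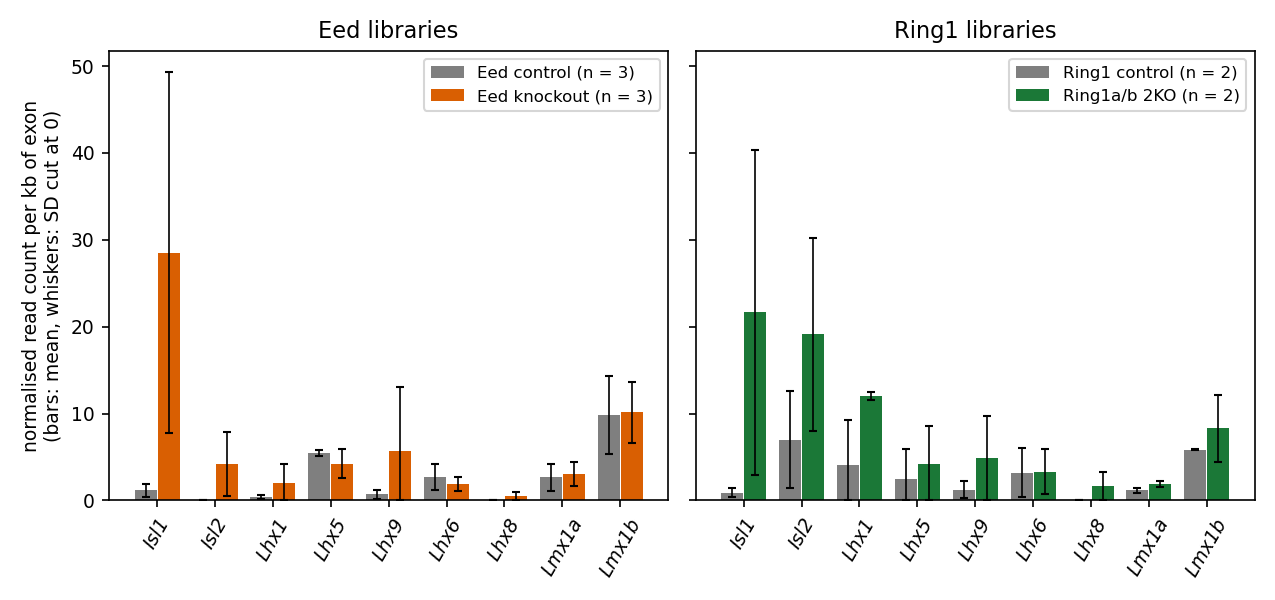
Mean normalised read count per kb of merged exon for each LIM homeodomain gene in the Eed (left) and Ring1 (right) libraries; whiskers are SD, cut at 0. Isl1 goes from 1.18 to 28.5 in the Eed libraries and from 0.893 to 21.7 in the Ring1 libraries, and Lmx1b from 9.81 to 10.2 in the Eed libraries.

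Lhx2 and Lhx4 complete the family members looked up. Lhx2, a factor of hair follicle stem cells, had counts of 68.2, 115 and 269 in the Eed controls against 994, 160 and 312 in the KO. KO 1 was far above the rest, and the limma log2 difference was 1.51 (SE 0.683, adjusted p = 0.989). Across the Ring1 libraries, Lhx2 had 117 and 116 in the controls against 264 and 488 in the 2KO, and it rose in the authors' deposited table (log2 fold change 1.68, adjusted p = 0.00804), a call that DESeq2 kept without 2KO 1 and lost without any 1 of the other 3 libraries. Lhx4, which acts in the pituitary, stayed at 3.6 to 15 in the Eed libraries and 3.32 to 7.42 in the Ring1 libraries. A pair of antisense genes, Gm27197 and Gm13584, overlaps Lhx2, and the limit on strand holds for it too.

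LIM homeodomain proteins work with cofactors, which were read as a list of 10 genes that also holds the LIM-only proteins, rivals for Ldb1. In the Eed comparison 10 were measured and 7 tested, and none was called higher or lower by limma or in the authors' deposited table (6 of 10 positive, median log2 difference 0.090, against 0.017 over all genes). Ldb1, the adaptor, was at 4683 ± 440 in Eed controls and 4311 ± 637 in the KO (SD, n = 3). The 4 with the smallest p were Rlim, a ubiquitin ligase that acts on Ldb1 complexes, with a log2 difference of −0.39 (9381 ± 1139 and 7178 ± 800), the LIM-only gene Lmo1 with 1.07, and the Ldb1-binding factors Ssbp4 with 0.40 and Ssbp3 with 0.23 (limma adjusted p = 0.989 for each). Lmo1 had 476, 399 and 410 in the controls against 2368, 702 and 437 in the KO, so KO 3 was within the control range. For the Ring1 libraries, 9 were measured and 7 tested, with 2 of 9 positive, a median of −0.37 against 0.026 over all genes, and none called. Lmo1 had 123 and 188 in the controls against 286 and 328 in the 2KO (limma log2 difference 1.00, adjusted p = 0.356), and Ldb1 was at 1349 ± 119 and 953 ± 172 (SD, n = 2; −0.51, adjusted p = 0.463). Ssbp2 and Rlim followed with limma log2 differences of −0.37 and −0.34.

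Partners of Isl1 in motor neurons, sensory neurons, heart and pancreas formed a list of 23 genes. In the Eed comparison 21 were measured and 13 tested, with 16 of the 21 positive, a median log2 difference of 0.43 and 0 called by limma or in the authors' deposited table. Slc18a3, Neurog2, Nkx2-5, Hand2 and Ins2 had no control read, so their differences could not be negative. The smallest p was that of Tbx1, a T-box factor of the pharyngeal heart field, at 20.5, 11.2 and 54.6 in the controls against 273, 45.6 and 66.3 in the KO (limma log2 difference 1.96, adjusted p = 0.989). Pax6, an eye and islet factor, had 0.92, Nkx6-1, a motor neuron and beta cell factor, 1.05, and the heart factor Gata4 0.80. In the Ring1 comparison 17 were measured and 13 tested, with 14 of the 17 positive, a median of 1.09 and 0 called by limma. Neurog2, Olig2, Neurod1 and Ins2 had no read in the Ring1 controls and could not be negative. Chat entered the limma test only through the 2KO libraries. There Tbx1 rose in the authors' deposited table, from 18.7 ± 6.51 to 100 ± 0.636 (SD, n = 2; adjusted p = 0.00624), a call that DESeq2 lost without any 1 of the 4 libraries. Pax6 had 17.7 and 34.9 in the controls against 71.1 and 161 in the 2KO, and Gata4 18.2 and 61.5 against 109 and 238. Bmp4, a growth factor, was at 1231 and 1707 in the controls against 985 and 488 in the 2KO (limma log2 difference −1.06, adjusted p = 0.413).

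Genes that work with Lhx and Lmx1 factors in kidney, gonad, forebrain, midbrain, mouth and limb formed a further list of 23. In the Eed comparison 19 were measured, 15 of them positive with a median of 0.59, and 0 were called by limma among the 14 tested. Of those 14, Emx2, Dlx2, Msx1, Otx2 and En1 passed the filter on low values only through the KO libraries. Barx1 and Foxa2 had no read in the Eed controls, so their differences could not be negative. Msx1, a homeobox factor of jaw and limb, rose in the authors' deposited table: it had 2.92, 2.03 and 6.07 in the controls against 64.7, 33.2 and 30.0 in the KO (adjusted p = 0.00851). Its call was lost in DESeq2 without control 1 (adjusted p = 0.0998) and without KO 1 (adjusted p = 0.440). The head factor Otx2 followed with a limma log2 difference of 3.16, the limb signal Wnt7a with 2.42 and the midbrain factor En1 with 2.96 (adjusted p of 0.844, 0.912 and 0.979). In the Ring1 comparison 20 were measured, 15 of them positive with a median of 1.14, and 0 were called by limma among the 16 tested, of which Pax2, Wt1, Nkx2-1 and Otx2 passed the filter only through the 2KO. Wt1, Gbx2 and Pitx3 had no read in the Ring1 controls and could not be negative. Wt1, a kidney and gonad factor, rose in the authors' deposited table from 0 reads in both controls to 16.7 and 52.0 (adjusted p = 0.0051). In DESeq2 the Wt1 call was lost without control 1, control 2 or 2KO 2, with no adjusted p given without 2KO 1. Barx1, a mouth and stomach factor, and Otx2 had limma log2 differences of 3.82 and 4.30 (adjusted p of 0.297 and 0.344), and neither was called in the authors' deposited table. Otx2 had 0 and 3.32 in the controls against 124 and 12.6 in the 2KO, so most of its difference lay in 2KO 1.

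**Figure D5:**
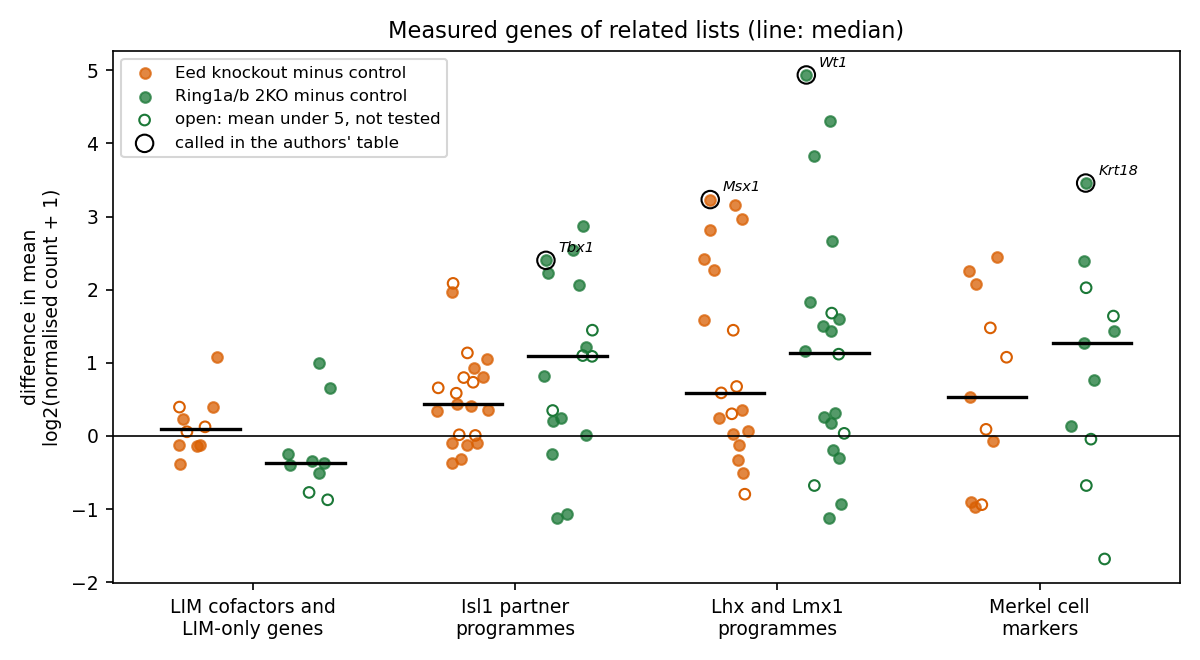
Knockout minus control difference in mean log2(normalised count + 1) for the measured genes of 4 lists, in the Eed (orange) and Ring1 (green) comparisons; open points have a mean under 5 and were not tested, lines are medians over all points, and circled genes were called in the authors' deposited tables. Cofactor medians lie at 0.090 and −0.37, and those of the Lhx and Lmx1 programmes at 0.59 and 1.14.

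Since Isl1 marks Merkel cells, 12 other Merkel cell markers were read beside it, and 11 were measured (Atoh1 is not analysed here). Their summed counts were 179 to 278 in the Eed controls against 223 to 270 in the Eed KO, within the control range. Of the 11, 7 were positive, with a median of 0.53, and none was called by limma or in the authors' deposited table. Sox2 and Pou4f3 had no read in the Eed controls, so their differences could not be negative. The smallest p was that of the keratin Krt18, with 0.974, 2.03 and 8.09 in the controls against 50.4, 10.4 and 14.2 in the KO (limma log2 difference 2.45, adjusted p = 0.967). Krt8, Krt18 and Sox2 entered the limma test only through the KO libraries. For Krt18 every KO library was above every control, as for 4.92% of all genes. Its partner keratin Krt8 was at 3.58 ± 5.35 and 18.3 ± 18.1 (SD, n = 3; 2.25, limma adjusted p = 0.989), while the touch channel Piezo2 and the synaptic vesicle gene Syp had −0.98 and −0.91. Krt20, a defining marker, had 0, 0 and 4.05 in the controls against 2.40, 0 and 0.789 in the KO, and Sox2 had 0 in the 3 controls and 40.8, 0 and 0.789 in the KO. In the Ring1 libraries the sums were 73.4 and 131 in the controls against 258 and 169 in the 2KO, and 8 of the 11 were positive with a median of 1.28. Krt18 rose there in the authors' deposited table, with 5.21 and 3.32 in the controls against 96.4 and 32.3 in the 2KO (adjusted p = 0.00592), a call lost in DESeq2 without control 1 or control 2, and with no adjusted p given without 2KO 1. Krt18 entered the limma test of the Ring1 libraries only through the 2KO. Krt20 had 0.521 and 9.97 against 0.618 and 0, and Sox2 had 0 and 0 against 2.47 and 1.79. Piezo2 had 8.33 and 16.6 in the controls against 31.5 and 28.7 in the 2KO (log2 difference 1.28). Krt8, with a mean under 5 and not tested, had a log2 difference of 2.03. Insm1, Chga, Syp and Rab3c had 2.39, 1.44, 0.76 and 0.14, each with overlapping groups. The negative differences were those of Krt20 (−1.68), Pou4f3 (−0.68) and Gfi1 (−0.045). The highest Merkel cell sum was in 2KO 1 and the highest Isl1 count in 2KO 2, and the part of Merkel cells in the Isl1 results of either comparison was not tested.

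Markers of other skin cells were read in the same way. The 6 measured fibroblast markers summed to 62.9 to 258 in the Eed controls against 353 to 959 in the KO, and to 87.5 and 123 in the Ring1 controls against 785 and 156 in the 2KO. Of the 6, 4 were positive in the Eed KO (median log2 difference 0.46) and 5 in the 2KO (0.72). Dcn, a matrix proteoglycan, had 863, 306 and 129 in the Eed KO against 19.5, 34.5 and 74.8, which was most of the sum in KO 1 and KO 2 but not in KO 3 (129 of 374). It was a higher call of the authors' deposited table for the Eed KO (adjusted p = 0.000238), though not by DESeq2 without KO 1 (adjusted p = 0.129). In the Ring1 libraries Dcn had 35.4 and 56.5 in the controls against 691 and 48.4 in the 2KO. It thus was most of the sum in 2KO 1 (691 of 785), and it was not called there. Of the 7 hair follicle bulge markers 5 were positive in each comparison, with medians of 1.08 in the Eed KO and 1.61 in the 2KO. None was called in the Eed KO, where the smallest p-values were those of Tbx1, Lgr5 with a limma log2 difference of 1.08, Sox9 with 0.66 and Lhx2. Their sum, nearly all of it the keratin Krt15, was 153096 to 220627 in the Eed controls against 114775 to 189301 in the KO, and 37920 and 25365 in the Ring1 controls against 21893 and 14321 in the 2KO. In the 2KO 4 of 7 were higher in the authors' deposited table: Cd34, Lgr5, Tbx1 and Lhx2. Schwann cell and neuron markers summed to 1713 to 2320 in the Eed controls against 1499 to 1803 in the KO, with Tubb3 called higher in the authors' deposited table (adjusted p = 0.0436), and to 550 and 510 against 343 and 333 in the Ring1 libraries, with 0 called. Of these markers, 4 of 9 were positive in the Eed KO (median −0.26), Sox10 and Nefl with no control read. In the 2KO 6 of 7 were positive (0.85), Tubb3 and Snap25 with no control read. Most of each Ring1 sum was Mbp, at 503 ± 19.9 in the controls and 283 ± 40.2 in the 2KO (SD, n = 2). Sebaceous gland markers had 0 calls in both tables and sums of 9905 to 13568 and 8270 to 11380 in the Eed groups, and of 6177 and 4294 against 4784 and 2862 in the Ring1 groups. Of these 5 markers, 2 were positive in the Eed KO (median −0.28) and 4 in the 2KO (0.57), and Scd1 made up most of each Ring1 sum. Of the 6 melanocyte markers, 3 were positive in the Eed KO (median −0.022) and 5 in the 2KO (1.38). Melanocyte markers summed to 709 to 785 and 553 to 962 in the Eed groups, with Mlana called, and to 239 and 311 against 622 and 341 in the Ring1 groups, with Tyrp1 called, both higher. Each of these calls was lost in DESeq2 without at least 1 library: Tubb3 without any but KO 3, Mlana without KO 1, Cd34 without any but 2KO 1, Lgr5 without any 1, and Tyrp1 without control 1. The part of these cells in the results on the LIM homeodomain genes was not tested.

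Isl1 was also compared with the 12195 genes of the Eed table with a mean of at least 50, by Pearson's r of log2(value + 1) over the 6 libraries. The 5 highest were Tcf3, which encodes an E-protein transcription factor (r = 0.997), the cell cycle ligase subunit Skp2 (0.988), the mitochondrial ribosome gene Mrps31 (0.985), the reductase gene Msrb3 (0.982) and the Wnt modulator Sfrp1 (0.981). They share with Isl1 the order of the libraries, highest in KO 1, then KO 2 and KO 3, but their KO means were 1.24 to 1.64 times those of the controls, far below the 24.1-fold of Isl1. Tcf3, for instance, had 1162, 1344 and 1185 in the controls against 1891, 1767 and 1515 in the KO. None of the 5 was called in the authors' deposited tables of either comparison (adjusted p of 0.442 to 1.00 in the Eed KO and 0.514 to 0.999 in the 2KO). With 6 points and so many genes searched, these r values describe the libraries only.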

How the data were processed

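Libraries were made from 10 ng of amplified total RNA and 100 ng of cDNA and read as 150-nucleotide pairs, per the labels' protocols. The submitters' processing notes name kallisto 0.42.5, DESeq2 3.11 and mm10. The deposited tables hold normalised counts per library, used as a signal that is never negative, and the authors' log2 fold changes, p-values and adjusted p-values; the authors' Wald score was not used. All values were whole multiples of 1 step per library (tolerance 1e-06), so whole reads were recovered. Floors and counting intervals cover counting error only, because amplified reads are not independent molecules.

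The main test was limma 3.58.1 (trend, robust; R 4.3.3) on log2(value + 1), leaving out genes whose mean was under 5, adjusted by Benjamini-Hochberg over all genes of a table, with calls at an adjusted p under 0.05. Alternatives were other filters (none, a mean of at least 50), pseudocounts (0.5 and 5) and scalings, a threshold of 0.1, 1 fit over the 10 libraries, replicate number as a block, DESeq2 1.42.0 on the reads, the authors' calls, and each library left out. edgeR 4.0.16 and DESeq2 without each library were added after seeing the data. Fits were tested on simulated data. Members, gene lists and rules were chosen with earlier results of these data known. Named besides the members were Lhx2, Lhx4, the called genes of each list, or else the 4 with the smallest p, and the 5 genes most like Isl1. One gene of each of the Isl1 partner and the Lhx and Lmx1 lists is not reported here and is left out of their counts and medians. Krt20, Krt15, Sox2 and Ldb1 were named after their values were seen. Positions and exon lengths are from GENCODE M21, and promoters from RefSeq (GRCm38.p6).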

Additional observations from a re-analysis of the deposited data

How the results depend on the processing

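Of 316 values of single members under other settings, 25 changed sign, 14 gained a call and 21 of members with no test moved, while the rest kept direction and side of the threshold. None of those that changed sign was called. No call could be lost, since the main test called no member. DESeq2 on all recovered reads gave the same member values and numbers of calls as the authors' deposited tables, which are DESeq2 results. These settings thus repeat the same result. All gained calls came from DESeq2 or those tables, except that of Isl1 in limma without 2KO 1. The Isl1 log2 difference ran from 3.29 to 4.59 in the Eed KO and from 3.14 to 4.77 in the 2KO over settings that kept all libraries. Signs changed under quantile normalisation for Lmx1a (−0.000298 in the Eed KO, −0.048 in the 2KO) and Lhx6 (−0.22 in the 2KO), and under centring for Lmx1b (−0.0051 in the Eed KO). Without 1 library, limma gave −0.041 to 0.62 for Lmx1a and −0.16 to 0.42 for Lmx1b in the Eed KO, and −0.63 to 3.20 for Lhx5, −0.84 to 1.11 for Lhx6 and −0.063 to 0.90 for Lmx1b in the 2KO. DESeq2 without 1 library gave −0.84 to 0.016 for Lhx6, −0.081 to 0.81 for Lmx1a and −0.17 to 0.50 for Lmx1b in the Eed KO, and −1.04 to 6.85 for Lhx5, −0.61 to 1.49 for Lhx6 and −0.051 to 0.92 for Lmx1b in the 2KO. Negative values within these DESeq2 ranges were −0.027 for Lmx1a without control 1, −0.088, −0.040 and −0.15 for Lmx1b without control 3, KO 1 and KO 3, and −0.26 for Lhx5 without Ring1 control 1.

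Counts of calls moved more. Over all genes of the Eed comparison limma called 0, 10 in 1 fit over the 10 libraries, 0 to 4 without 1 library (2 without control 2, 4 without KO 2), while 127 were called by DESeq2 and 127 in the authors' deposited table, or 30 to 189 in DESeq2 without 1 library. In the Ring1 comparison limma called 6, 10 with no filter, 0 in the fit over 10 libraries, and 0 to 438 without 1 library (438 without 2KO 1, 2 without 2KO 2, 0 without either control), while 231 were called by DESeq2 and 231 in the authors' deposited table, or 39 to 679 in DESeq2 without 1 library. The difference between the effects had 0 calls, and 0 to 4 without 1 library (1 without Ring1 control 1, 4 without 2KO 1). Members called numbered 1 in each comparison with DESeq2 and in the authors' deposited tables, 1 in the Eed KO in DESeq2 without any 1 library, and in the 2KO 0 to 1 in limma and 0 to 2 in DESeq2 without 1 library. Isl1 passed limma in the 2KO without 2KO 1 (adjusted p = 0.0478), the fit that called 438 genes; with 1 library of the Ring1 set left out, the lone library of a group is assumed to vary like the other group. With a mean of at least 50 no member of the Ring1 table is tested. The causes of these changes were not tested.

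Replicate numbers are shared between groups, and the sources used here do not say whether they pair the libraries. Same-numbered Eed libraries had correlations of −0.195, 0.164 and 0.311 between their deviations from group means, and Eed KO 1 correlated best with control 2. So few values cannot decide on a pairing. In the Ring1 table, 2 libraries per group fix every correlation at 0.229 or −0.229, and library 1 was the deeper in both groups. With the number as a block, limma called 1 gene in the Eed and 36 in the Ring1 comparison, 24 higher and 12 lower, and 0 members; Isl1 had an adjusted p of 0.217 and 0.0833. Depth limits the members: in the controls all but Lmx1b rest on 50 or fewer reads per group, Isl1 on 14 and 7, and 1 read is worth 0.521 to 1.79 normalised counts in the Ring1 libraries.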
